A study of Homo sapiens with 28 samples.

Results

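Chromosome 12 genes from 12p13.1 to 12p11, the part of the short arm next to the centromere, were followed across human embryonal carcinoma (EC) and embryonic stem (ES) cell lines. The list names 46 genes chosen by their position, from HEBP1 on the telomere side to PKP2 on the centromere side. At gene level 38 of them had a transcript cluster (the array's unit for a gene) that carries that symbol alone, among 22011 clusters in all. The other 8 were read from their exon probesets. Of these, PYROXD1, RECQL, BCAT1, ITPR2, AMN1 and YARS2 share a cluster with another symbol, and PTHLH and DDX11 have none. In all 45 members have 863 probesets of 1 symbol among 287329, and PLBD1 has none.

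Affymetrix Human Exon 1.0 ST arrays gave the RNA levels, with 1 array for each line and growth condition. A first EC group (n = 3; NTERA2, 2102Ep and 833KE) grew on mouse embryo fibroblasts inactivated with mitomycin C, called feeders, and its medium was knock-out DMEM with serum replacement and FGF. A second EC group (n = 5; 2102Ep, 833KE, NCCIT, NTERA2 and TERA1) grew on plastic in high-glucose DMEM with fetal calf serum. The ES group (n = 6; H9, H14, Shef3, Shef5, Shef6 and Shef7) grew on the feeders and in the medium of the first EC group. All cells of all groups were sorted for the surface antigen SSEA3. EC on plastic and ES lines therefore differ in medium and feeders as well as in origin. A group's replicates are lines, so p-values against ES lines set a difference against the spread between lines. In fits with a line or growth term the spread used is what is left after that term. All values are deposited log2 values and a difference of 1 is 2-fold. On an array the signal of a cluster also depends on its probes, so levels are compared between arrays and not between genes.

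EC lines are the malignant counterpart of ES lines: they come from germ cell tumours and share pluripotency markers with ES cells, although some EC lines differentiate little or not at all. Gain of the short arm of chromosome 12, often as an isochromosome that carries the arm in mirror-image copies, is the characteristic chromosome change of adult germ cell tumours. The arm holds genes of many unrelated functions, so a list set by position mixes enzymes, transport factors, signalling proteins and transcription factors. No copy number was measured here. In bulk RNA a lower signal can come from fewer cells of a type or from less RNA per cell, which cannot be told apart.

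Array pairs correlated with r from 0.931 to 0.984 over all clusters. The pluripotency markers (11 of 12 measured; mean of their log2 values on an array) lay at 9.58 to 10.0 in EC on feeders, 9.58 to 10.4 in EC on plastic and 9.39 to 10.2 in ES lines. The fibroblast list (15 of 15 measured) lay at 6.02 to 6.25 in EC on feeders, 5.16 to 5.62 in EC on plastic and 5.95 to 6.97 in ES lines. Endoderm markers (6 of 6) lay at 5.73 to 6.45 in EC on feeders, 5.22 to 5.61 in EC on plastic and 6.62 to 7.22 in ES lines, trophoblast markers (4 of 4) at 4.91 to 5.07, 4.74 to 5.65 and 4.79 to 5.46, and neural markers (4 of 4) at 5.41 to 5.77, 5.55 to 5.90 and 5.70 to 6.76 in the same 3 groups. The list mean of endoderm markers was thus lower in each EC array than in each ES array. That of fibroblast markers was lower on plastic than on feeders. Not each marker followed its list mean. NANOG averaged 11.49 in EC on plastic, 10.90 in EC on feeders and 9.75 in ES lines. ZFP42 was at 4.22 in NTERA2 on plastic and 3.41 in the ES line Shef3. POU5F1, NANOG, SOX2 and TAGLN were read as medians of probesets and the other markers from clusters. CER1 ran from 4.08 to 5.52 in EC on plastic, 5.83 to 8.52 in EC on feeders and 9.30 to 10.88 in ES lines. GATA4 was at 7.54 in NTERA2 on feeders, above the highest ES line at 7.24. POSTN averaged 3.20 in EC on plastic and 2.84 in EC on feeders. The part of these marker lists in the results was not tested. The labels number the arrays, with codes up to 13 for 4 arrays (NTERA2 and 2102Ep on feeders, H14 and Shef5) and from 17 for the other 10. What the codes stand for is not stated.

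The members as a whole lay above the ES level in each EC array. Over the 38 members the median log2 difference from the mean of the 6 ES lines was 1.42 in 2102Ep, 1.01 in NTERA2 and 0.83 in 833KE on feeders. On plastic it was 1.68 in 2102Ep, 1.44 in NTERA2, 1.44 in TERA1, 0.87 in 833KE and 0.47 in NCCIT. The ES lines ran from -0.21 in Shef5 to 0.29 in H9. On plastic NCCIT was thus the EC line nearest to ES, with 19 of 38 members above the highest ES line (24.1% of all clusters). The counts were 30 in 2102Ep (22.2%), 29 in 833KE (20.6%), 31 in TERA1 (21%) and 33 in NTERA2 (22.4%). Over all clusters the same medians ran from -0.02 to 0.06 in EC arrays.

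**Figure D1:**
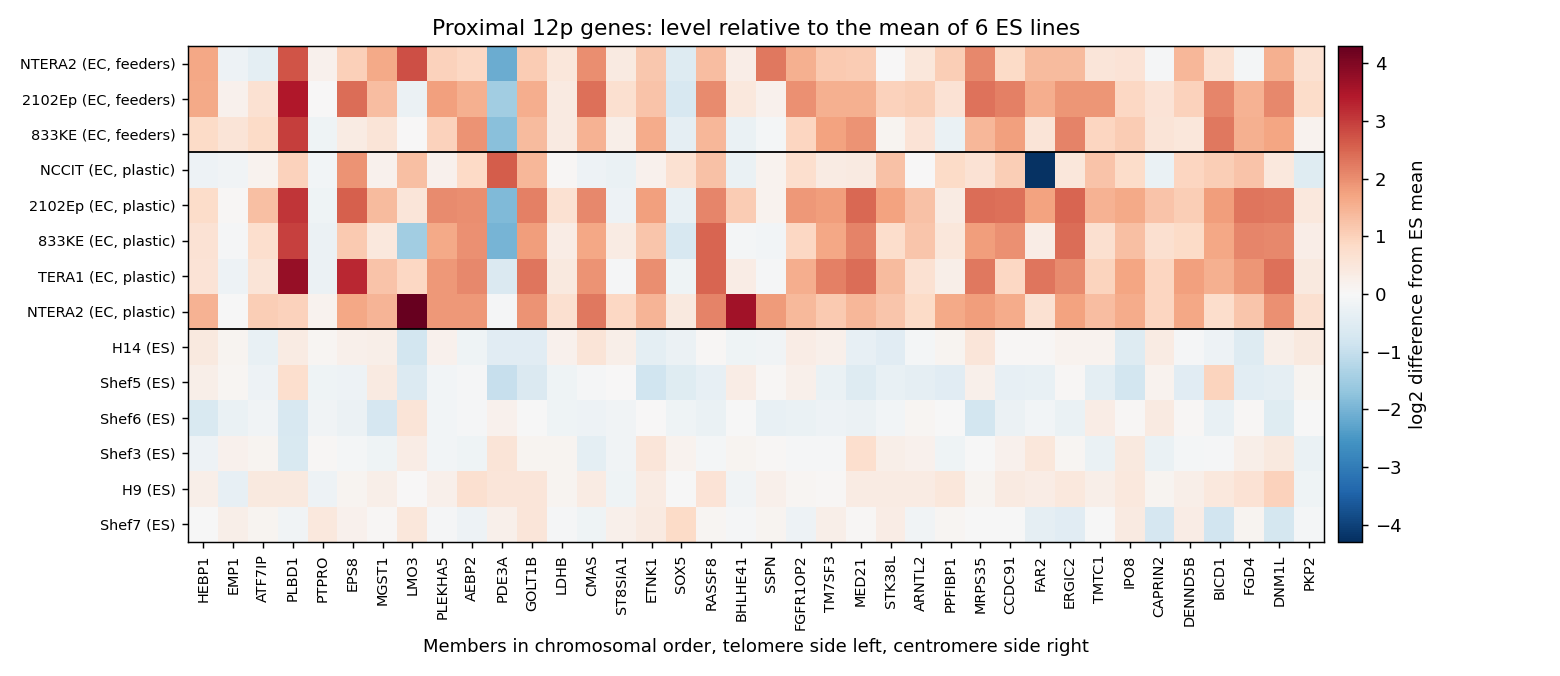
Level of the 38 members with a cluster of their own in each of 14 arrays, as the log2 difference from the mean of the 6 ES lines (colour), in order along the arm; the EC arrays on feeders, the EC arrays on plastic and the ES arrays are separated by lines. Red cells run through most of the arm in the EC arrays, with NCCIT palest, and FAR2 in NCCIT at -4.24 is the deepest blue.

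Along the arm the members were split into 3 consecutive groups. The 13 from HEBP1 to LDHB had medians of 0.20 in NCCIT and 0.62 to 1.45 in the other EC lines on plastic. The 13 from CMAS to PPFIBP1 had 0.36 in NCCIT and 0.91 to 1.72 in the others. The 12 from MRPS35 to PKP2 had 0.71 in NCCIT and 1.46 to 1.76 in the others. On feeders the 3 medians were 1.00, 1.08 and 0.74 in NTERA2, 1.34, 1.06 and 1.73 in 2102Ep and 0.55, 0.60 and 1.24 in 833KE. The dim members (mean signal over 14 arrays not above the median cluster) all lie in the first 2 groups. Among the 30 brighter members the 3 medians on plastic were 2.01, 1.80 and 1.76 in 2102Ep and 1.87, 1.93 and 1.72 in TERA1. In NTERA2 the medians were 1.499, 1.43 and 1.46. The medians still rose toward the centromere in NCCIT (0.20, 0.38 and 0.71) and 833KE (1.13, 1.197 and 1.47). The EC lines on plastic thus shared no common order along the arm.

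Other genes of the chromosome give the surroundings. The 142 clusters of distal 12p had medians of 0.15 in NCCIT and 0.74 to 1.14 in the other EC lines on plastic. The 574 clusters of 12q had medians from -0.10 to 0.19 in the same arrays. The 40 remaining clusters of 1 symbol between HEBP1 and PKP2 had 0.13 to 0.56. Signal strength differs between these sets, since 30 of 38 members but 9 of these 40 clusters are brighter than the median cluster. Brightness is the mean over all 14 arrays, EC arrays included, so in each set clusters high in EC lines pass more easily. Among brighter clusters the members had medians of 0.56, 1.79, 1.24, 1.81 and 1.46 in NCCIT, 2102Ep, 833KE, TERA1 and NTERA2 on plastic, against 0.48, 1.75, 1.44, 1.55 and 1.79 in the 9 others and 0.49, 1.72, 1.28, 1.28 and 1.24 in 67 clusters of distal 12p. On feeders the brighter members had 1.07, 1.55 and 1.03 in NTERA2, 2102Ep and 833KE, against 1.07, 1.77 and 1.25 in brighter distal 12p. The members therefore did not stand above the rest of the short arm in each array once dim clusters were left out.

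**Figure D2:**
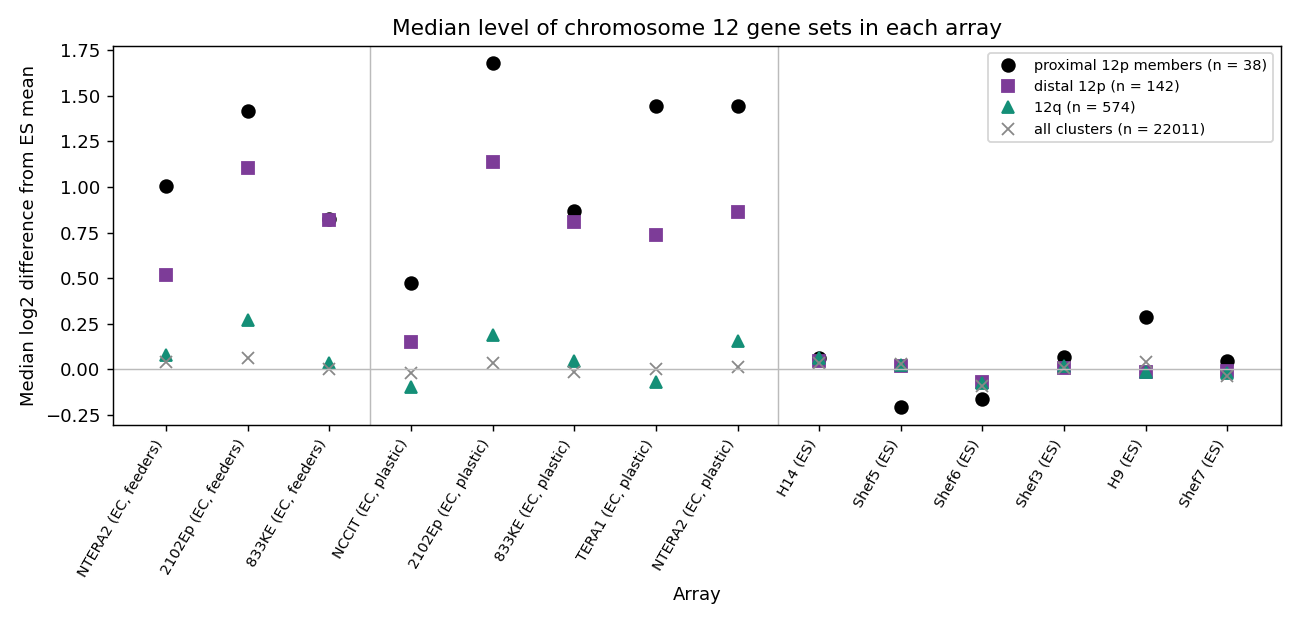
Median log2 difference from the ES mean (vertical axis) in each array (horizontal axis; EC on feeders, EC on plastic, ES) for the proximal 12p members, distal 12p, 12q and all clusters. The members run from 0.47 in NCCIT to 1.68 in 2102Ep on plastic, at or above distal 12p in the EC arrays with dim clusters included, 12q lies between -0.10 and 0.27, and all sets lie near 0 in ES lines.

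The first comparison set EC lines on plastic against ES lines. With limma, 21 of 38 members rose in EC lines on plastic and 0 fell, against 3.26% of all clusters higher and 1.34% lower. The median difference of the members was 1.25, against 0.0046 over all clusters, and 34 of 38 differences were positive. By an unadjusted p below 0.05, 28 members differed, against 19.2% of all clusters. In 15 members all 5 EC arrays lay above all 6 ES arrays, against 2.85% of all clusters. Among the arrays coded from 17, 14 members rose and 0 fell by limma, against 1.71% and 0.686% of all clusters, and 27 had an unadjusted p below 0.05 (16.5%). With the code as a block 17 rose (2.44% of all clusters). Among brighter clusters alone, 24 of 30 members rose (6.33% of those clusters). Brightness is the mean over all 14 arrays, EC arrays included, so a cluster high in EC lines can pass through them. EPS8 passed at a mean of 6.42 (percentile 52.1 of all clusters) with an ES mean of 5.40. This count is therefore not independent of the difference tested.

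Genes of vesicle trafficking and nuclear transport rose in 6 of 6 members with a cluster, with a median difference of 1.49. The counts by role below are likewise over members with a cluster. GOLT1B, a membrane protein of Golgi vesicle transport, had levels of 9.81, 10.57, 10.19, 10.69 and 10.31 in NCCIT, 2102Ep, 833KE, TERA1 and NTERA2 on plastic, against 7.76, 8.43 and 8.91 as the lowest, median and highest ES level. Each EC array was above each ES array, and the mean was 3.79-fold higher (log2 difference 1.92, SE 0.24, adjusted p = 0.00185). ERGIC2, which cycles between endoplasmic reticulum and Golgi, had 7.48, 9.51, 9.41, 9.04 and 8.74 in the same order, against 6.52, 7.08 and 7.45 in ES lines. NCCIT cleared the highest ES line by little and the other 4 lines by more than 1, for a difference of 1.83 (SE 0.33, adjusted p = 0.0093). CCDC91, which binds clathrin adaptors at the trans-Golgi, had 7.005, 8.33, 7.91, 6.85 and 7.55, against 5.60, 5.97 and 6.35 in ES lines (difference 1.57, SE 0.26, adjusted p = 0.00662). IPO8, a nuclear import receptor, had 9.33, 10.19, 9.84, 10.24 and 10.16, against 7.78, 8.78 and 8.997 in ES lines (difference 1.40, SE 0.26, adjusted p = 0.0124). The groups of CCDC91 and IPO8 did not overlap either. BICD1, an adaptor of the dynein motor, rose by 1.36 (adjusted p = 0.028) and DENND5B, which activates Rab GTPases, by 1.25 (adjusted p = 0.00688).

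GOLT1B and RECQL, a DNA helicase, start next to each other on opposite strands, and both rose in EC lines (RECQL is given with the probesets), so their promoter windows are printed. Each holds 250 bases before the RefSeq start and 50 after it (GRCh38.p14), 5′ to 3′ on the gene's strand, with CG dinucleotides in capitals. The windows of 300 bases share 253 bases, each as the reverse complement of the other. GOLT1B lies on the plus strand at chr12:21501539-21501838 and RECQL on the minus strand at chr12:21501586-21501885.
GOLT1B: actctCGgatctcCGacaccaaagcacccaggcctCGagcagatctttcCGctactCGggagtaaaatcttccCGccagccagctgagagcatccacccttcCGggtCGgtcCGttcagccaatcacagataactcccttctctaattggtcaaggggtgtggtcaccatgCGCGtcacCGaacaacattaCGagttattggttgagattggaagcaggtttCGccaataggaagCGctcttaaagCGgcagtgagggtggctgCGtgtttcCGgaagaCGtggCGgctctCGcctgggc
RECQL: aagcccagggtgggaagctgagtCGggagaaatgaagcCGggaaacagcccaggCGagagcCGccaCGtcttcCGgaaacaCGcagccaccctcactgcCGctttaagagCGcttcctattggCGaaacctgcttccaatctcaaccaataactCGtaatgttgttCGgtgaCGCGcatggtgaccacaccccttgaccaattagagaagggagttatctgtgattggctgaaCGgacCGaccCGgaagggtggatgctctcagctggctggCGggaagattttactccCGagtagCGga
They hold 21 and 20 CG dinucleotides, and 39.5% and 41.2% of 27305 genes of the table hold as many or more. Over the 38 members found in the table the median was 22 CG, against 14 over all its genes, and it was 22 in 23 brighter members and 15.5 in 8 dim ones.

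Signalling and cytoskeletal genes rose in 5 of 7 members, with a median of 1.28. EPS8, an actin regulator that is a substrate of growth factor receptors, had 7.34, 7.98, 6.53, 8.65 and 7.05 in EC lines on plastic (NCCIT, 2102Ep, 833KE, TERA1, NTERA2), against 5.16, 5.41 and 5.62 in ES lines. Its lowest EC array was 833KE, still above each ES array, and the mean was 4.32-fold higher (difference 2.11, SE 0.31, adjusted p = 0.00458). RASSF8, a Ras-association domain protein, had 9.19, 10.05, 10.45, 10.46 and 10.09, against 7.59, 7.93 and 8.55 in ES lines. Its groups were separate and the mean was 4.29-fold higher (difference 2.10, SE 0.24, adjusted p = 0.00108). FGD4, which activates the GTPase CDC42, had 8.64, 9.68, 9.51, 9.30 and 8.59, against 6.83, 7.47 and 8.03 in ES lines (difference 1.75, SE 0.26, adjusted p = 0.00504). FGFR1OP2 had 7.66, 8.80, 7.85, 8.50 and 8.32, against 6.65, 6.94 and 7.26 (difference 1.28, SE 0.21, adjusted p = 0.00659), again with no overlap. STK38L, a kinase of the NDR family, rose by 1.25 (adjusted p = 0.00671). PDE3A, which degrades cyclic AMP, and PTPRO, a receptor phosphatase, differed by -0.39 and -0.12 and were not called.

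Metabolic and mitochondrial genes rose in 5 of 10 members, with a median of 1.13. PLBD1, a phospholipase B-like protein, had the largest difference among the 38 members with a cluster, with 7.64, 9.73, 9.59, 10.38 and 7.64 in NCCIT, 2102Ep, 833KE, TERA1 and NTERA2, against 5.95, 6.74 and 7.35 in ES lines. NCCIT and NTERA2 were just above the highest ES line and the other 3 were over 2 higher, so that the mean was 5.12-fold higher with a wide spread (8.996 ± 1.27 in EC, SD, n = 5; difference 2.36, SE 0.51, adjusted p = 0.0229). MRPS35, a protein of the small mitochondrial ribosomal subunit, had 8.59, 10.35, 9.75, 10.23 and 9.74, against 7.16, 7.998 and 8.46 in ES lines (difference 1.78, SE 0.31, adjusted p = 0.0087). Its groups did not overlap. DNM1L, the GTPase of mitochondrial fission, rose by 1.83 (adjusted p = 0.0208), CMAS, which activates sialic acid, by 1.55 (adjusted p = 0.0445) and ETNK1, an ethanolamine kinase, by 1.32 (adjusted p = 0.0466). In each of these 3 genes NCCIT lay inside the ES range. MGST1 (difference 0.93), HEBP1 (0.66), LDHB (0.43), FAR2 (0.15) and ST8SIA1 (0.14) were not called. LDHB, a lactate dehydrogenase subunit with the brightest signal of the list, had 12.41, 13.0003, 12.67, 12.77 and 13.04 in EC lines, against 12.17, 12.37 and 12.52 in ES lines. NCCIT lay inside the ES range and the other 4 above it (adjusted p = 0.111).

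Membrane and adhesion genes rose in 3 of 7 members, with a median of 0.71. TM7SF3, a multi-span membrane protein, had 9.30, 10.74, 10.62, 11.12 and 10.05 in EC lines on plastic (same order), against 8.67, 8.95 and 9.20 in ES lines. NCCIT lay just above the ES range and the rest well above it (difference 1.42, SE 0.28, adjusted p = 0.0138). PLEKHA5, a phosphoinositide-binding protein, rose by 1.52 (adjusted p = 0.0118) and TMTC1, an O-mannosyltransferase for cadherins, by 1.14 (adjusted p = 0.00659). PPFIBP1 (0.71), SSPN (0.39), PKP2, a desmosomal plakophilin (0.27), and EMP1 (-0.08) were not called. EMP1 had 2.91, 3.10, 3.03, 2.85 and 3.05 in EC lines against 2.71, 3.16 and 3.32 in ES lines, and the groups overlapped throughout. Its mean signal was at percentile 11.04 of all clusters.

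Transcription, chromatin and DNA genes rose in 2 of 8 members, with a median of 0.86. AEBP2, an accessory subunit of Polycomb repressive complex 2, had 8.88, 10.04, 10.01, 10.10 and 9.89 in EC lines on plastic, against 7.82, 7.91 and 8.71 in ES lines. NCCIT stood near the highest ES line, H9, and the other 4 lines were over 1 above it (difference 1.75, SE 0.24, adjusted p = 0.00284). MED21, a subunit of the Mediator complex, rose by 1.76 (adjusted p = 0.02). ATF7IP, a cofactor of the histone methyltransferase SETDB1, had 9.94, 11.07, 10.48, 10.31 and 10.85, against 9.46, 9.76 and 10.21 in ES lines, and missed the threshold (difference 0.75, adjusted p = 0.0641). ARNTL2, a clock transcription factor now named BMAL2 in RefSeq, differed by 0.79 (adjusted p = 0.0663). SOX5 had 5.66, 4.71, 4.32, 4.81 and 5.42 in EC lines against 4.47, 4.90 and 5.85 in ES lines, where 833KE lay below the ES range and the other 4 lines inside it (difference -0.02). LMO3 (1.10), BHLHE41 (0.93) and CAPRIN2 (0.70) were not called. PTPRO, the dimmest member, had 2.71, 2.65, 2.58, 2.58 and 2.98 in EC lines on plastic against 2.59, 2.78 and 3.27 in ES lines, at percentile 8.90 of all clusters by mean signal.

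**Figure D3:**
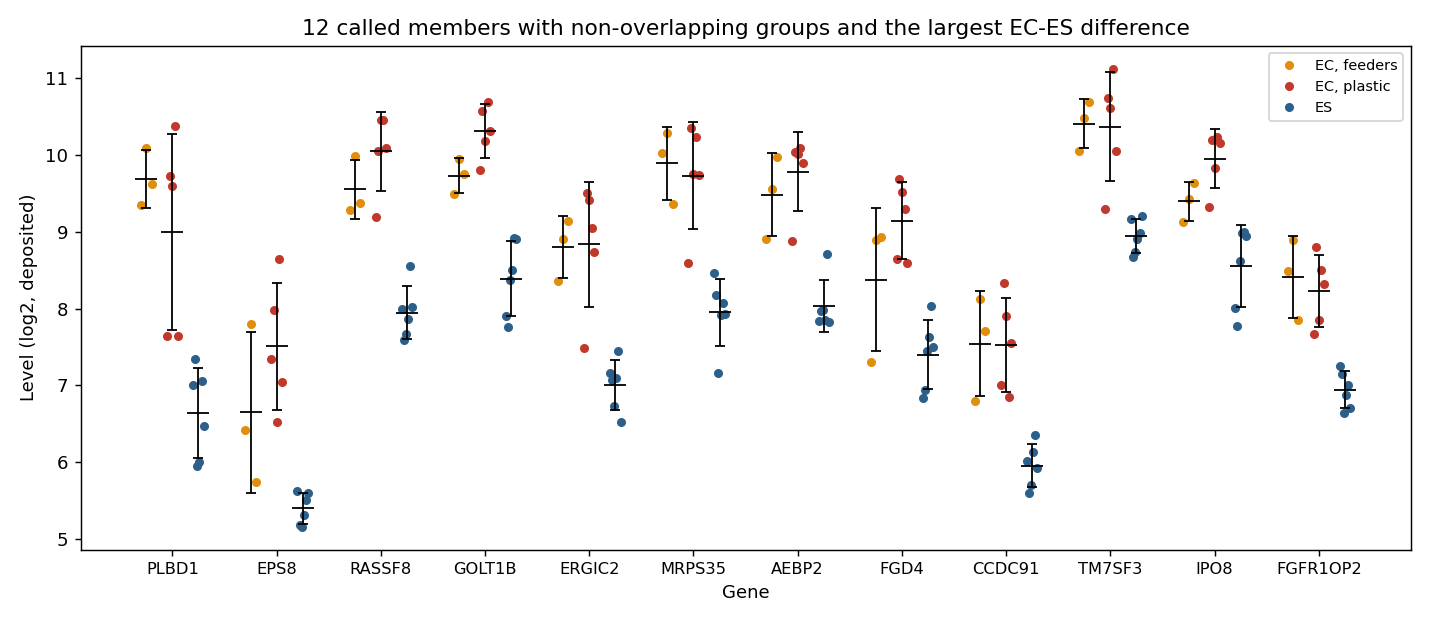
Deposited log2 level (vertical axis) of the 12 called members with non-overlapping groups and the largest difference, with 1 point per array in EC on feeders, EC on plastic and ES lines and bars for mean ± SD. In each of the 12 genes the lowest EC array on plastic lies above the highest ES array.

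Calls near the threshold were often lost when 1 array was left out. CMAS and ETNK1 were not called when any of 10 of the 11 arrays was left out (adjusted p up to 0.106 and 0.111). The array whose removal kept both calls was NCCIT. BICD1 lost its call without any of 7 arrays (up to 0.0731), PLBD1 of 5 (up to 0.0629) and DNM1L of 4 (up to 0.0586). MED21 lost it without 2102Ep or 833KE (up to 0.0546). Among the arrays coded from 17, PLEKHA5 (adjusted p = 0.0513) and TM7SF3 (0.0583) were not called either. The 8 members whose mean signal over 14 arrays lay below the median cluster (EMP1, PTPRO, LMO3, PDE3A, ST8SIA1, SOX5, BHLHE41 and SSPN) were not called, and 4 of their differences were positive. That mean includes the EC arrays, so a member high in EC lines is less likely to fall in this set.

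The exon-level values carry the same lines and array codes as the gene-level values, so they are not independent support. They gave the same direction for most members. Of 863 probesets of members, 386 were higher and 0 lower in EC lines on plastic by limma adjusted over all probesets, against 2.07% and 0.745% of all probesets. Positive differences were seen in 741 probesets and negative in 122. In 21 of 45 genes at least as many probesets were called higher as were not. Without 2102Ep the count of called probesets was 250.

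ITPR2, a calcium release channel of the endoplasmic reticulum gated by inositol trisphosphate, stood out among the genes read from probesets. All 66 of its probesets were called higher, by 1.37 to 4.36. The median of its probesets was 8.55, 9.60, 9.35, 9.61 and 8.39 in NCCIT, 2102Ep, 833KE, TERA1 and NTERA2 on plastic, against 5.48 to 7.24 in ES lines, with no overlap. In a fit over such medians of 16909 genes it differed by 2.94 (SE 0.33, adjusted p = 3.72e-04). That fit called 25 of 45 members higher and 0 lower, against 4.87% and 1.72% of genes. MGST1, not called at its cluster, was among them (difference 1.28, adjusted p = 0.0451).

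PYROXD1, an oxidoreductase, had probeset medians of 7.80, 7.44, 7.98, 7.73 and 8.12 in EC lines on plastic (NCCIT, 2102Ep, 833KE, TERA1, NTERA2), against 5.17 to 6.43 in ES lines (difference 2.12, SE 0.22, adjusted p = 2.13e-04). Here NCCIT did not stand below the other EC lines. RECQL had 7.95, 9.85, 9.53, 9.87 and 9.003, against 7.04 to 7.92 in ES lines, with NCCIT just above the ES range (difference 1.85, SE 0.31, adjusted p = 0.00372). BCAT1, which transaminates branched-chain amino acids, had 10.61, 11.04, 11.94, 11.02 and 11.03, against 8.88 to 10.07 in ES lines (difference 1.497, SE 0.26, adjusted p = 0.00413). AMN1 (0.85, adjusted p = 0.157) and YARS2, the mitochondrial tyrosyl-tRNA synthetase (0.88, adjusted p = 0.172), were not called. DDX11, a helicase with near-identical copies elsewhere that could take part of its signal, differed by 0.42 (adjusted p = 0.505) and is uncertain. PTHLH, a secreted hormone-like peptide, had probeset medians from 3.77 to 4.45 in EC lines on plastic and from 3.90 to 4.59 in ES lines, with 833KE below the ES range and the others inside it. BICD1 and DNM1L each rest on 1 probeset of 1 symbol.

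**Figure D4:**
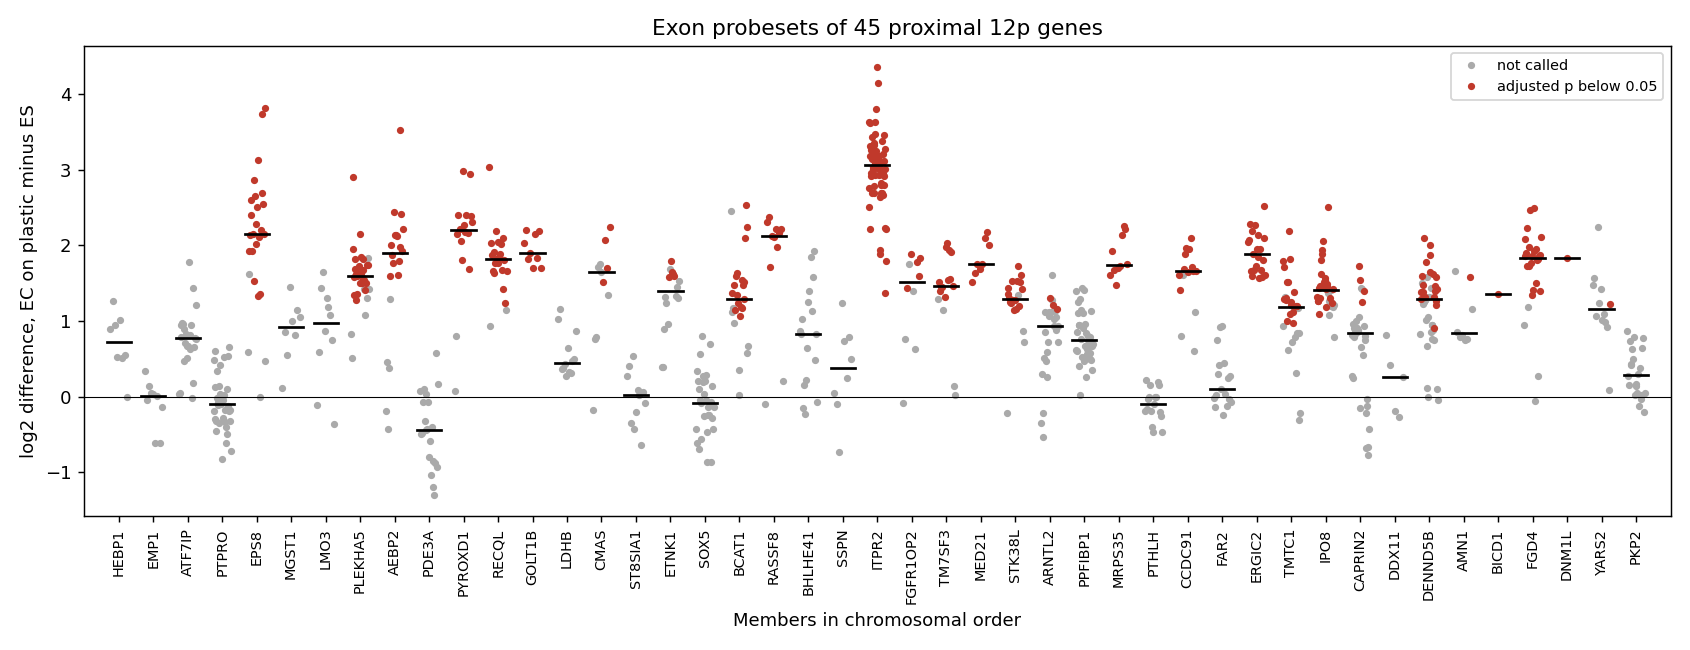
Log2 difference of each exon probeset between EC lines on plastic and ES lines (vertical axis) for 45 members in order along the arm, with called probesets in red, others in grey and the gene's median as a bar. The 66 probesets of ITPR2 are all red, between 1.37 and 4.36, while PTPRO, SOX5, PTHLH and PDE3A lie around or below 0.

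The second comparison set EC lines against ES lines with both on feeders. With limma 14 of 38 members rose in EC lines on feeders and 1 fell, against 1.56% and 0.731% of all clusters. The median difference was 1.14, against 0.042 over all clusters, and 28 members had an unadjusted p below 0.05 (17.6% of all clusters). In 24 members all 3 EC arrays lay above all ES arrays and in 1 below, against 5.78% and 3.08% of all clusters. In 13 members all 8 EC arrays of both conditions lay above all ES arrays (1.4% of all clusters). These counts shrank in subsets: 7 members rose without 2102Ep, 2 rose and 1 fell among arrays coded from 17 (0.845% and 0.822% of all clusters), where 833KE is the lone EC array and its variance is taken to be that of the ES group, and 0 were called by limma among arrays coded up to 13, with 23 at an unadjusted p below 0.05 (10.7% of all clusters). With the code as a block 15 rose and 1 fell (1.27% and 0.586% of all clusters).

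By role, 5 of 10 metabolic members rose (median 1.35), 3 of 6 trafficking members (1.46), 2 of 7 signalling members with 1 fall (0.98), 2 of 7 membrane members (0.79) and 2 of 8 transcription and DNA members (0.55). PLBD1 had 9.34, 10.09 and 9.62 in NTERA2, 2102Ep and 833KE on feeders, against 5.95, 6.74 and 7.35 in ES lines. All 3 lay far above the highest ES line, and the mean was 8.25-fold higher (difference 3.04, SE 0.33, adjusted p = 0.00284). CMAS had 9.87, 10.24 and 9.39, against 7.45, 7.78 and 8.42 in ES lines (difference 1.95, SE 0.25, adjusted p = 0.00637), with no overlap. DNM1L had 8.36, 8.90 and 8.51, against 6.06, 6.75 and 7.80 (difference 1.77, SE 0.36, adjusted p = 0.035). MED21 had 9.45, 9.90 and 10.29, against 7.83, 8.26 and 9.10 (difference 1.51, SE 0.29, adjusted p = 0.0295). HEBP1, a heme-binding protein, had 8.38, 8.33 and 7.54, against 6.04, 6.81 and 7.12 (difference 1.38, SE 0.27, adjusted p = 0.0313). PLEKHA5 had 9.02, 9.78 and 9.01, against 7.89, 7.93 and 8.25 (difference 1.25, SE 0.20, adjusted p = 0.0143). None of these groups overlapped.

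MRPS35 rose by 1.94, ERGIC2 by 1.80, RASSF8 by 1.60, CCDC91 by 1.59, FGFR1OP2 by 1.47, TM7SF3 by 1.47, AEBP2 by 1.45 and GOLT1B by 1.34 in EC on feeders (adjusted p from 0.00637 to 0.0372). DNM1L lost its call without any of 8 of 9 arrays (adjusted p up to 0.127), AEBP2, GOLT1B and MED21 without any of 5 (up to 0.0867, 0.131 and 0.0983), HEBP1 of 4 (up to 0.115), CCDC91 of 2 (up to 0.0743) and FGFR1OP2 without 2102Ep (0.0528). In the fit over probeset medians, which called 22 of 45 members higher and 1 lower (2.5% and 1.2% of genes), ITPR2 differed by 1.94 (adjusted p = 0.0178), RECQL by 1.64 (0.00343), AMN1 by 1.63 (0.0102), YARS2 by 1.60 (0.0415), PYROXD1 by 1.504 (0.0282), BCAT1 by 1.41 (0.0102), DDX11 by 0.56 (0.443) and PTHLH by 0.0012 (0.999). AMN1 and YARS2 were called here and not on plastic; the difference between these comparisons was not tested. FAR2 rose by 1.36 in the fit over probeset medians (adjusted p = 0.0246), while at its cluster the difference was 1.16 (adjusted p = 0.0521). ETNK1 and BICD1 were likewise called in that fit (adjusted p = 0.0135 and 0.0423) and not at their clusters (0.0504 and 0.0779).

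The dimmest and brightest members were read on feeders too. PTPRO had 3.01, 2.83 and 2.65 in NTERA2, 2102Ep and 833KE on feeders, EMP1 2.84, 3.25 and 3.62, and SOX5 4.44, 4.32 and 4.61, with differences from ES lines of 0.0018, 0.17 and -0.55 that were not called. LDHB had 12.84, 12.74 and 12.75, all above the highest ES line at 12.52, and missed the threshold (difference 0.43, adjusted p = 0.151). ATF7IP had 9.37, 10.43 and 10.59, against 9.46, 9.76 and 10.21 in ES lines, with NTERA2 below the ES range and the other two above it (difference 0.36, adjusted p = 0.557). TM7SF3 had 10.05, 10.48 and 10.69, against 8.67, 8.95 and 9.20, with no overlap.

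PDE3A was the member that fell. Its level was 4.15, 4.78 and 4.46 in NTERA2, 2102Ep and 833KE on feeders, against 5.28, 6.47 and 6.84 in ES lines. Each EC array on feeders lay below each ES array (difference -1.80, SE 0.34, adjusted p = 0.0266), with the call lost without any of 6 of 9 arrays (up to 0.0667).

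The third comparison set the EC feeder arrays against the plastic arrays of NTERA2, 2102Ep and 833KE, blocking on the line. Limma called 0 of 38 members and 0 of 22011 clusters, a share of 0%, and with 3 pairs of arrays a count of 0 does not show that levels were alike. By an unadjusted p below 0.05, 8 members differed, all of them lower on feeders, against 14.9% of all clusters differing in either direction. The median difference was -0.29, and 27 of 38 were negative. In 16 members all 3 lines were lower on feeders and in 5 all 3 were higher, against 18.1% and 20.6% of all clusters. The per-line median of the members was -0.40 in NTERA2, -0.19 in 2102Ep and -0.12 in 833KE, against 0.017, 0.035 and 0.0049 over all clusters. In NTERA2 and 2102Ep the feeder arrays have codes up to 13 and the plastic arrays codes from 17. Growth and code therefore cannot be told apart in these lines, and only 833KE has both arrays coded from 17. The mean of the fibroblast list given above moved with growth on feeders.

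STK38L had 8.66, 9.65 and 8.77 in NTERA2, 2102Ep and 833KE on feeders, against 9.85, 10.37 and 9.40 on plastic (difference -0.85, SE 0.19, adjusted p = 0.244). FGD4 had 7.30, 8.89 and 8.94 on feeders, against 8.59, 9.68 and 9.51 on plastic (difference -0.89, SE 0.20, adjusted p = 0.247). GOLT1B had 9.49, 9.95 and 9.75 on feeders, against 10.31, 10.57 and 10.19 on plastic (difference -0.62, SE 0.17, adjusted p = 0.268). Each of these was lower in 3 of 3 lines. In the other direction, HEBP1 had 8.38, 8.33 and 7.54 on feeders, against 8.20, 7.505 and 7.32 on plastic (difference 0.41, adjusted p = 0.416). PLBD1 had 9.34, 10.09 and 9.62 on feeders, against 7.64, 9.73 and 9.59 on plastic (difference 0.70, adjusted p = 0.421), most of it in NTERA2. BICD1 had 7.90, 9.36 and 9.52, against 7.999, 9.04 and 8.91 (difference 0.27, adjusted p = 0.567), higher in 2 of 3 lines.

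Some members followed 1 line rather than the group, and are named here because their spread among EC lines was seen to be large. FAR2, which makes fatty alcohols from fatty acyl-CoA, was at 3.96 in NCCIT, against 9.92, 8.50, 10.51 and 8.84 in 2102Ep, 833KE, TERA1 and NTERA2 on plastic and 7.80, 8.15 and 8.67 in ES lines. NCCIT was 4.24 below the ES mean while the other 4 lines were 0.31 to 2.31 above it. At exon level 15 of 17 FAR2 probesets were lower in NCCIT than in each ES line. Its neighbours CCDC91 and ERGIC2 were 1.05 and 0.48 above the ES mean in NCCIT. The promoter window of FAR2 (chr12:29149028-29149327, plus strand, GRCh38.p14, CG in capitals) is shown because its gene departs from its neighbours in this line.
FAR2: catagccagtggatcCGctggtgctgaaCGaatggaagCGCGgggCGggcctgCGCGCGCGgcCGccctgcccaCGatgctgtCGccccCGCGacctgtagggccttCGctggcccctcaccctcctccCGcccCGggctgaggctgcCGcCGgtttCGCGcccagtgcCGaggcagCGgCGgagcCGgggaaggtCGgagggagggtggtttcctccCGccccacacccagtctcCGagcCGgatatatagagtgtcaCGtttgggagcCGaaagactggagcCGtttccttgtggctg
It holds 32 CG dinucleotides, and 18.6% of genes hold as many or more. Methylation was not measured.

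PDE3A went the other way in NCCIT, at 8.88, against 4.38, 4.28, 5.64 and 6.22 in 2102Ep, 833KE, TERA1 and NTERA2 on plastic and 5.28 to 6.84 in ES lines. All 21 of its probesets were higher in NCCIT than in each ES line. LMO3, a LIM-domain transcription cofactor, was at 7.67 in NTERA2 on feeders and 9.18 on plastic, against 3.41 to 6.21 in the other EC lines on plastic and 4.11 to 5.47 in ES lines. BHLHE41, a repressor of the circadian clock, was at 5.51 in NTERA2 on feeders and 8.82 on plastic, against 4.94 to 6.30 in the other lines on plastic and 5.02 to 5.53 in ES lines. Both genes were thus high in NTERA2 on plastic, and BHLHE41 was near the ES level in the same line on feeders.

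**Figure D5:**
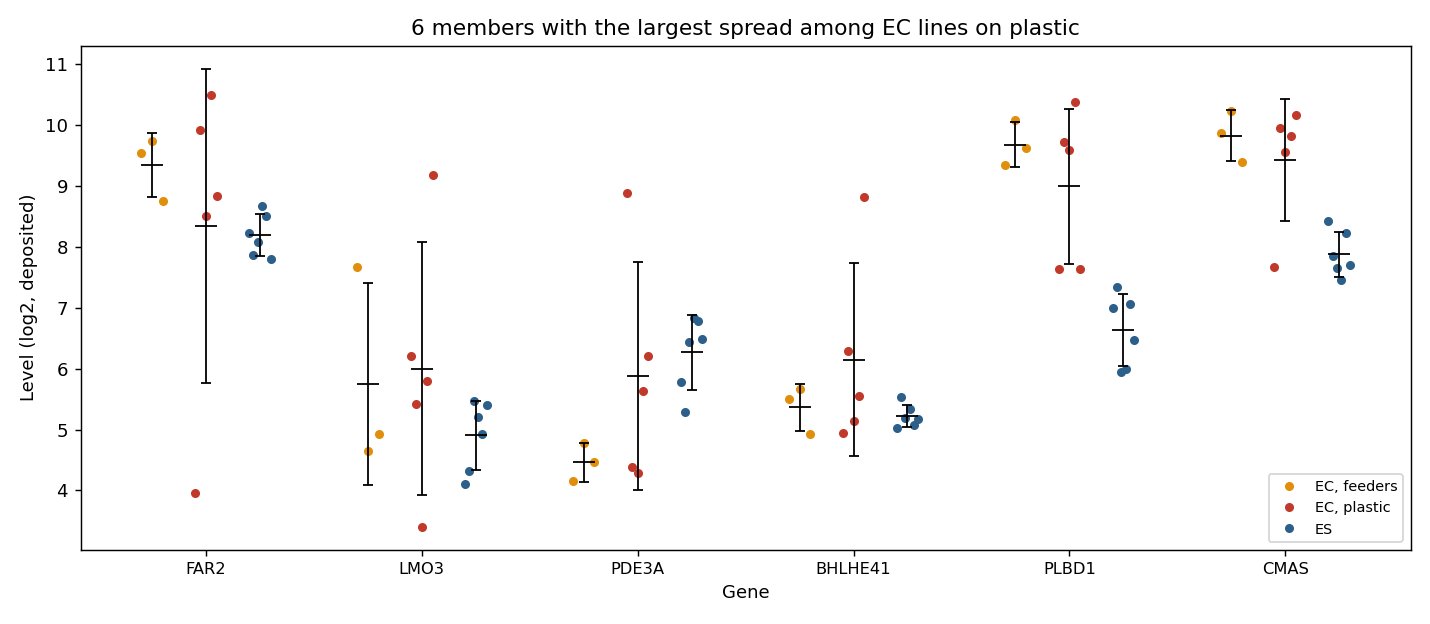
Deposited log2 level (vertical axis) of the 6 members with the largest SD among EC lines on plastic, with 1 point per array and bars for mean ± SD in EC on feeders, EC on plastic and ES lines. FAR2 has 1 EC array at 3.96 and PDE3A 1 at 8.88, both NCCIT; LMO3 and BHLHE41 have 1 high array each on plastic, NTERA2.

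Spread between EC lines was larger than between ES lines. The median SD of a member was 0.42 among EC lines on feeders, 0.57 among EC lines on plastic and 0.34 among ES lines, against 0.31, 0.34 and 0.29 over all clusters. NCCIT was the lowest of the 5 EC lines on plastic in 23 of 38 members, against 29.4% of all clusters. The highest was 2102Ep in 14 members, TERA1 in 11 and NTERA2 in 11, against 18.4%, 20.4% and 21.6% of all clusters.

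The 3 lines with 2 arrays each were also compared with each other, with growth as a term. Limma called 1 member in the 3 pairs of lines. SSPN, a muscle dystrophin-complex protein, was lower in 833KE than in NTERA2, with 5.15 on feeders and 5.10 on plastic in 833KE against 7.47 and 7.03 in NTERA2 (difference -2.13, SE 0.22, adjusted p = 0.0383; 0.241% of clusters higher and 0.323% lower). Both NTERA2 arrays lay above both 833KE arrays, and the call was lost without any of the 6 arrays (adjusted p from 0.109 to 0.131). In this pair 16 of 38 members had an unadjusted p below 0.05 (18.4% of clusters). Between 2102Ep and NTERA2 SSPN differed by -1.87 (adjusted p = 0.0594), where 0 members were called against 0.141% of clusters higher and 0.109% lower, and 13 of 38 had an unadjusted p below 0.05 (16.1% of clusters). Between 2102Ep and 833KE 0 members were called against 0.00454% higher and 0% lower, and 8 of 38 had an unadjusted p below 0.05 (13.1%). With 2 arrays for each line, counts of 0 do not show that levels were alike.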

How the data were processed

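The authors summarised Affymetrix Human Exon 1.0 ST arrays with RMA in Affymetrix Expression Console, per the submitters' processing notes, which give no version, settings or log base; the deposited log2 values were read as log2 from their range. Array medians of the deposited values ran from 6.19 to 6.39 at gene level and from 6.45 to 6.8 at exon level, so arrays were not on one distribution. The number of arrays limits the precision. Symbols came from the platform annotation (14432 clusters with 1 symbol, 2408 with several, 5171 with none), and gene order and promoters from RefSeq (GRCh38.p14), where 38 of 46 members had a promoter entry. Values by array are given for called members with non-overlapping groups (up to 12 by size on plastic, up to 6 further on feeders), all members called lower, the 3 smallest p each way between feeders and plastic, called line differences, and the 3 members of lowest and 3 of highest mean, plus genes chosen for their spread after values were seen. Members, lists and rules were chosen with earlier results of these data known.

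All clusters or probesets entered two-sided moderated tests (limma 3.58.1 under R 4.3.3), with Benjamini-Hochberg adjustment over all of them and a threshold of 0.05. Feeders against plastic used the line as a block: feeder and plastic arrays of the same line correlated with r of 0.41 (2102Ep), 0.34 (833KE) and 0.51 (NTERA2) after removing condition means, and arrays of different lines from -0.33 to -0.02, which is partly built in. The alternatives are in the closing section. Scripts were tested on simulated data in which 200 of 22011 clusters were shifted by 1 or by 2. At a shift of 2 the tests against ES lines recovered 180 of these for EC on plastic and 169 for EC on feeders. At a shift of 1, nearer to the median differences of the members, they recovered 102 and 64. Feeders against plastic and 2102Ep minus NTERA2 recovered 0 at either shift, so a count of 0 there does not show that levels were alike. Figures used matplotlib 3.10.9.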

Additional observations from a re-analysis of the deposited data

Results flagged for a closer look

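In groups of 4 to 10 arrays, 6 of 76 sets of member values had an extreme array far from the nearest other. Chance gives about 1 in 20 for independent sets. These sets share arrays and are not independent, so no excess is read from the count. NCCIT was far below the other EC lines on plastic for PLEKHA5 (8.22, the next 9.66), AEBP2 (8.88, the next 9.89), CMAS (7.68, the next 9.56) and DNM1L (7.28, the next 8.78). SSPN was far higher in NTERA2 on plastic, at 7.03 with the next line at 5.37. AEBP2 in the ES line H9 was at 8.71, the next ES line at 7.98.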

How the results depend on the processing

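In EC on plastic against ES, 14 to 25 members were called higher and 0 lower under each alternative other than leaving out an array. These were quantile normalisation, centring, brighter clusters, all arrays in 1 fit, code block, codes from 17, probeset medians and 3 lines. Leaving out 1 array gave 15 to 26 called higher. The members tested were 30 with brighter clusters, 45 with probeset medians and 38 otherwise. The background share called higher was 1.71% with codes from 17, 2.44% with the code block, 4.87% with probeset medians and 6.33% with brighter clusters. It is not given for the other settings, so no excess is read from their counts. In EC on feeders against ES, the median difference with codes from 17 was 0.72, where 833KE is the lone EC array. With probeset medians 22 of 45 members rose (2.5% of genes). With codes up to 13, an alternative chosen after seeing the data, 0 rose. Leaving out 1 array gave 7 to 15 that rose, 7 of them without 2102Ep, and the share of all clusters is not given there. The fall of PDE3A (1 member) gave 0 with brighter clusters only, where it is not tested, in the fit of all 14 arrays and with codes up to 13, and 0 to 1 when 1 array was left out. With brighter clusters only, 3 of 30 members were higher in 2102Ep than NTERA2. In 833KE against NTERA2 2 were higher and 2 lower, and in 2102Ep against 833KE 1 was higher. The share of brighter clusters called is not given for these pairs, so no excess is read from the counts. Leaving out 1 array gave 0 lower in 833KE than NTERA2. Probesets called higher ran from 250 (without 2102Ep) to 455. Between feeders and plastic, limma called 0 members without the replicate block (3 at an unadjusted p below 0.05) and 0 with it (8); with 3 pairs these zeros say nothing about stability. Of single calls under alternatives, 532 were retained and 128 lost, none with a turned sign; the cause was not tested. The number of arrays limits all comparisons, and codes and lines cannot be told apart on feeders. Between feeders and plastic, codes and growth cannot be told apart in NTERA2 and 2102Ep.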
